A study of Mus musculus with 8 samples.

Results

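The data described here are the transcripts of 10 genes of glucose uptake and glycolysis in single thymic epithelial cells (TEC) of the mouse, from the fetal thymus to the adult. The genes were taken by their symbols: Slc2a1, Hk1, Hk2, Pfkp, Aldoa, Tpi1, Pgk1, Eno1, Pkm and Ldha. All 10 were found among the 27514 genes shared by every library, and all 10 passed the filter on low counts in each comparison below. TEC are the stromal cells that support T cell development. Cortical TEC (cTEC) form the stroma of the thymic cortex and medullary TEC (mTEC) that of the medulla.

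All animals were wild-type C57 B6 (CD45.2) mice without treatment. Live EpCAM+ CD45- cells were sorted, and 8 libraries formed 6 groups: 1 library each of E13.5 TEC (total TEC, with no lineage gate), of cTEC from E15.5 embryos, from E17.5 embryos and from newborns (NB, 0 to 2 days of age), and 2 each of adult (4 to 6 weeks) cTEC and adult mTEC, with cTEC gated as Ly51+ UEA-1- and mTEC as Ly51- UEA-1+. The libraries were captured as 2 data sets: E13.5, E15.5, NB and the adult libraries numbered 1 form data set 1, and E17.5 and the adult libraries numbered 2 form data set 2. The values are counts of unique molecular identifiers (UMIs), each marking a captured transcript, summed over the cells of a library and scaled to a common library total (CPM). How many animals went into a library was not given in the sources used here, so the spread between the adult libraries may hold technical as well as biological differences.

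Glycolysis splits a glucose molecule into pyruvate in the cytosol, with a small yield of ATP and of precursors for nucleotides, lipids and amino acids, and dividing cells often run it fast even in the presence of oxygen. Glucose enters through facilitative transporters, is trapped by phosphorylation, is committed at the phosphofructokinase step and is cleaved into triose phosphates, which are oxidised to pyruvate. Lactate dehydrogenase then regenerates NAD+ by turning pyruvate into lactate. The transcription factors Myc and HIF-1 are known to bind E-box and hypoxia-response sequences (with cores such as CACGTG and ACGTG) at genes of this pathway.

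Because the activity of Myc was the subject of the study, the windows of up to 250 bases before the annotated starts of the 10 genes were searched for these letters on both strands. Other forms of these cores were not searched. The 10 genes had 17 such windows in RefSeq (GRCm38.p6). CACGTG lay in 1 of them, at Ldha, where it occurred at 145 and 48 bases before the start, against 6.02% of all 32851 promoters. ACGTG, which is contained in CACGTG, lay in 7 of the 17 windows, those of 6 genes (Slc2a1, Hk2, Aldoa, Pgk1, Pkm and Ldha), against 16.6% of all promoters. The 2 windows of Aldoa among the 7 overlap and hold the same site. The windows shown are those of the gene with both forms, of 2 genes with ACGTG alone, and of Tpi1, which had neither in its 250 bases. Capitals mark the motif letters on either strand, each sequence is read 5′ to 3′ on the strand of its gene, and that of Tpi1 stops before the first annotated exon base.
Ldha, chr7:46845554-46845803, plus strand: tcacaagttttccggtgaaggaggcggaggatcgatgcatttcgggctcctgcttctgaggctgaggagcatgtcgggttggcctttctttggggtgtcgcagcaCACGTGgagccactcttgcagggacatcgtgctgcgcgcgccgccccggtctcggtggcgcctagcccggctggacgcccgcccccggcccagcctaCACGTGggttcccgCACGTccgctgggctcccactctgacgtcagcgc
Hk2, chr6:82774455-82774704, minus strand: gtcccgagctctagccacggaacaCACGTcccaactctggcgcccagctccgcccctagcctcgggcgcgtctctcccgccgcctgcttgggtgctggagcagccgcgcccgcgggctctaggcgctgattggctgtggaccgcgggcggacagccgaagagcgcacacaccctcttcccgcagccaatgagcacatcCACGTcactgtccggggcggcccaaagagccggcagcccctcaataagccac
Pgk1, chrX:106186850-106187099, plus strand: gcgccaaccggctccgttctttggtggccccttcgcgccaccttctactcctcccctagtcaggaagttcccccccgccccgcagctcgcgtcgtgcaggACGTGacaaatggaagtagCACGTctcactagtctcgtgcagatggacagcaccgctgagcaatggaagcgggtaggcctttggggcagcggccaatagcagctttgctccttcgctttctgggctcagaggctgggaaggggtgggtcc
Tpi1, chr6:124814297-124814408, minus strand: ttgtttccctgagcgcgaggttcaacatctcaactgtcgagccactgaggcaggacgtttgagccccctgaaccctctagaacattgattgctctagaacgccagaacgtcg
A match of letters is a description of these windows and not a bound site.

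Depth differed between libraries, with 2257967 to 90103548 UMIs and medians of 3996 to 11386 UMIs per cell after cells over 5% mitochondrial UMIs or over 5000 genes were left out. Of the 25750 cells that passed, 655 in clusters led by markers of other cell types were left out and 25095, called epithelial-like, were kept. Those left out were 183 and 44 thymocyte-like, 239 erythroid-like, 130 parathyroid-like and 59 thyroid-like cells, and the 182 left out of E13.5 TEC were all of the last 2 kinds, which are epithelial cells of neighbouring glands. Libraries shared at most 84 cell barcodes. A UMI of Psmb11, Prss16 or Ccl25 was found in 87.2% of E13.5 cells, in 99.55% to 100% of E15.5, E17.5 and NB cells and in 74.85% and 82.9% of adult cTEC (medians of 3996 and 7062 UMIs per cell). It was also found in 38.4% and 59.8% of adult mTEC (9500.5 and 11386 UMIs per cell), so the share alone does not mark a cortical cell. The summed cTEC markers reached 1175 and 884 CPM in adult mTEC and 11070 to 24160 CPM in the 5 cTEC libraries. E13.5 TEC, with no cortical gate, held 2394 CPM of them and 2292 CPM of mTEC I markers, and it is counted among the 6 cortical libraries only for short, as the first stage of that series. Other features moved with age as well. A list of 22 immediate early and heat shock genes, a sign of handling, summed to 1378 to 1950 CPM in the 3 fetal libraries and to 7587 to 24290 CPM in the 5 NB and adult ones. Of these genes 18 of 22 were called higher with age (median slope 1.37), where 4.99% of all genes were called higher and 2.99% lower. Mesenchymal markers summed to 10.9 to 34.4 CPM in the fetal libraries against 46.2 to 686 in the others (1 of 5 tested called higher with age). Thymocyte markers rose as well, with 8 of 10 tested called higher (median slope 1.74) and sums of 5.97 to 9.79 CPM in the fetal libraries, 14.99 in NB and 48.6 and 95.3 in adult cTEC. Of myeloid markers 3 of 5 were called higher (median slope 2.0, sums of 0.902 to 3.59 CPM in the fetal and NB libraries and 247 and 32.6 in adult cTEC) and of endothelial markers 2 of 5 (1.95), while 1 of 4 erythroid and 1 of 3 parathyroid markers were called lower (-2.08 and -1.09). The part of these cell types in the slopes was not tested. Fetal and postnatal thymi were dissociated with different enzymes, so age and protocol cannot be told apart in steps from fetal to postnatal libraries, while the steps from E13.5 to E15.5 and from NB to adult lie within 1 protocol.

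At the entry of the pathway stands Slc2a1, the widely expressed glucose transporter GLUT1. Within data set 1, E13.5 TEC held 47.0 CPM, E15.5 cTEC 24.2, NB cTEC 15.7 and adult cTEC replicate 1 held 20.4 CPM, and within data set 2, E17.5 cTEC held 45.85 and adult cTEC replicate 2 held 11.3 CPM. Both data sets thus had their lowest levels after birth, but the exact Poisson intervals (95%, counting error only) of E15.5, adult cTEC replicate 1 and NB overlapped from each to the next. Adult mTEC held 27.8 and 19.6 CPM.

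The hexokinases phosphorylate glucose on entry, Hk1 as the housekeeping form and Hk2 as an inducible form. Hk1 was measured at 10.8 CPM at E13.5, 4.985 at E15.5, 5.96 in NB and 19.5 in adult cTEC replicate 1, and at 12.2 CPM in E17.5 and 11.3 in adult cTEC replicate 2. Hk2 was measured at 60.2 CPM at E13.5, 18.4 at E15.5, 9.51 in NB and 49.6 in adult cTEC replicate 1, and at 96.3 CPM in E17.5 and 25.1 in adult cTEC replicate 2. Neither followed age in 1 direction: in data set 1 both were high at the ends of the series and low at E15.5 and NB. Pfkp, the platelet-type subunit of the committing enzyme phosphofructokinase, had 7.99, 2.62, 5.23 and 17.6 CPM at E13.5, E15.5, NB and in adult cTEC replicate 1, and 5.90 and 8.52 CPM in the E17.5 and adult libraries of data set 2. Its adult cTEC values rest on 38 and 34 UMIs.

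Aldoa encodes the aldolase that cleaves the hexose, and Tpi1 the isomerase that interconverts the triose products. Aldoa stood at 899, 494, 469 and 586 CPM at E13.5, E15.5, NB and in adult cTEC replicate 1, and at 1359 and 572 CPM in the E17.5 and adult libraries of data set 2. Tpi1 stood at 647, 328, 135.5 and 112 CPM in the same order in data set 1, and at 644 and 121 CPM in data set 2. Tpi1 therefore dropped with each stage of data set 1, and its Poisson intervals at neighbouring stages did not overlap, whereas Aldoa was lowest in NB cTEC.

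The payoff steps are those of Pgk1, a kinase that makes ATP, Eno1, an enolase, and Pkm, the muscle-type pyruvate kinase. Pkm was found at 1455, 588.5, 292 and 252.5 CPM at E13.5, E15.5, NB and in adult cTEC replicate 1, and at 1007 and 216 CPM in the E17.5 and adult libraries of data set 2. Ldha, the lactate dehydrogenase subunit that favours lactate formation, was found at 1584, 638, 377 and 301 CPM and at 948.5 and 317 CPM in the same orders. These 2 genes and Tpi1 were the members that dropped at every step of data set 1, and E17.5 exceeded adult cTEC replicate 2 for each of them. The last step was small: from NB to adult cTEC replicate 1 the log2 ratios of CPM were -0.21 for Pkm, -0.33 for Ldha and -0.27 for Tpi1. Over the 6828 genes with an average log2 CPM above 4 the median of that step (CPM + 10) was -0.14, and 60.5% of them were lower.

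Eno1 was found at 295.5, 137, 77.3 and 221 CPM in the order of data set 1, and at 661 and 256.2 CPM in data set 2. Of the 50-base windows in the last 500 bases of its transcript, 75.2% also occur in Eno1b, a near-identical copy, so its counts are uncertain. Pgk1 could be compared only within a data set: it had 17.1, 6.295, 1.73 and 18.1 CPM in the cortical libraries of data set 1 and 15.9 in adult mTEC, but 632 CPM at E17.5, 112 in adult cTEC and 287 in adult mTEC of data set 2. The gene list of data set 1 alone holds Pgk1-rs7, which shares 7.32% of these windows with Pgk1 and had 17 to 124 UMIs over all cells of a library. The part of shared reads was not tested, and gene list, capture and run cannot be told apart here.

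**Figure D1:**
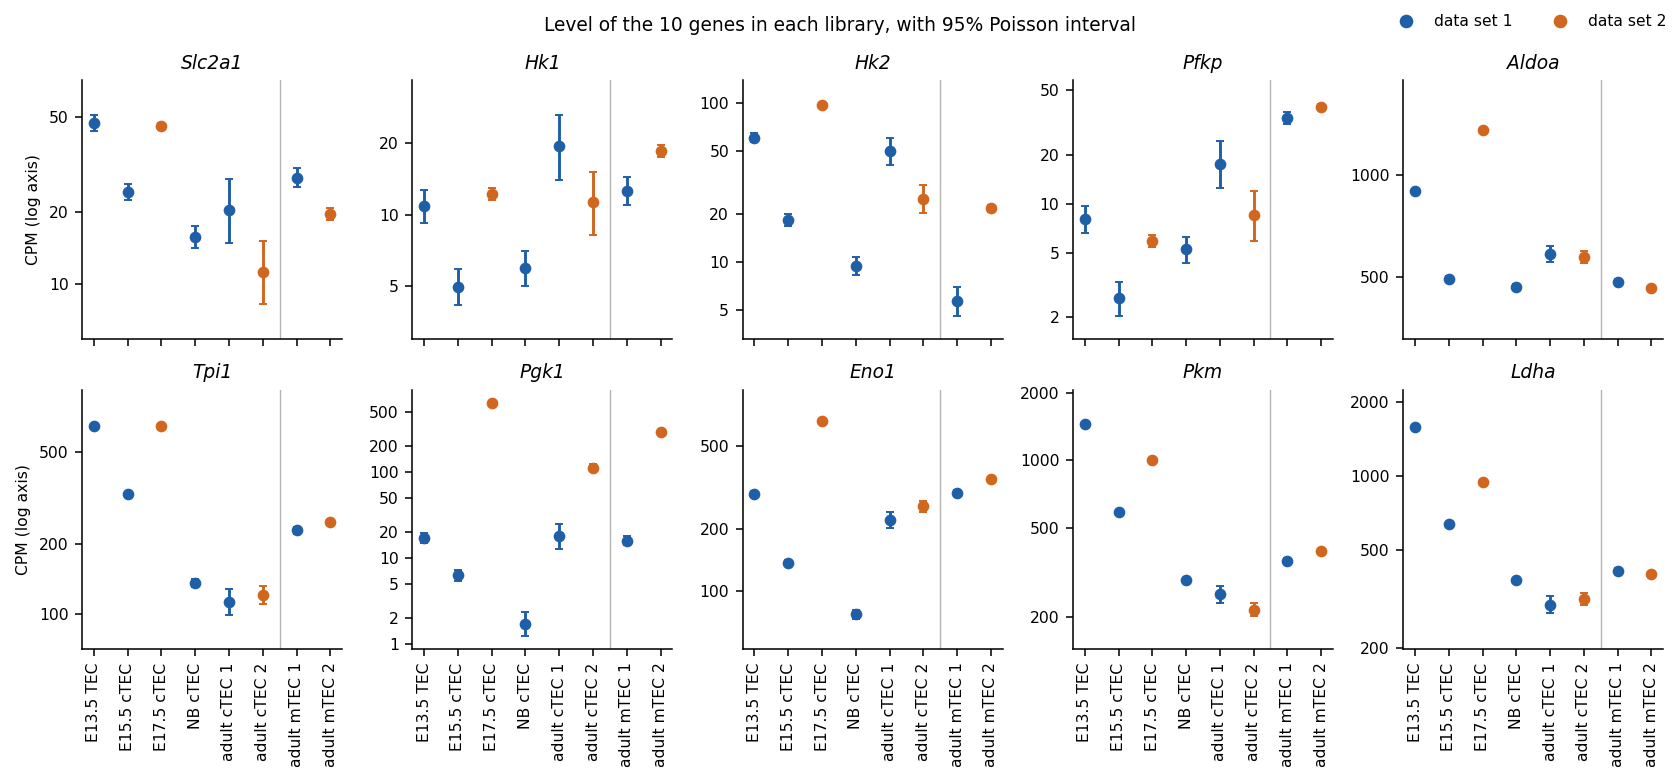
CPM of each of the 10 genes (log axis) in the 8 libraries, coloured by data set, with exact 95% Poisson intervals that cover counting error only; adult mTEC stand to the right of the line. Tpi1, Pkm and Ldha step down from E13.5 to the adult cTEC in data set 1, Hk2 and Eno1 are lowest in NB cTEC among the cortical libraries, and Pgk1 differs between the data sets.

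From E13.5 to E15.5 all 10 genes were lower, with a median log2 ratio of -0.90, where the median over the 6828 genes with an average log2 CPM above 4 was -0.02 and 52.1% of them were lower. From E15.5 to NB 8 of the 10 were lower (median -0.51, all genes 0.02), the exceptions being Hk1 and Pfkp. From NB to adult cTEC replicate 1, 7 were higher (median 0.59, all genes -0.14, with 39.5% of them higher), and the 3 that were lower were Tpi1, Pkm and Ldha. From E17.5 to adult cTEC replicate 2, 9 were lower (median -1.47, all genes 0.02). With 1 library at each age there is no test between single ages, and E13.5 also differs from the later ages in its gate.

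Which of these courses held over age was tested as a slope on the rank of the 5 stages in the 6 cortical libraries, with data set as a term (edgeR quasi-likelihood test). Ldha fell by 0.60 on the log2 scale per stage (SE 0.10, edgeR adjusted p = 0.0236), Pkm by 0.69 (SE 0.12, edgeR adjusted p = 0.0269) and Tpi1 by 0.73 (SE 0.12, edgeR adjusted p = 0.0242). Thus 3 of 10 members were called lower and none higher, where 7.98% of the 14307 genes tested were called, 2.99% lower and 4.99% higher. The median slope of the 10 was -0.23, against -0.00 over all genes. The 7 others did not pass: Slc2a1 had -0.42 (SE 0.14, edgeR adjusted p = 0.124), Hk2, Aldoa, Pgk1 and Eno1 between -0.24 and -0.21, and Hk1 and Pfkp 0.15 and 0.28. Without adult cTEC replicate 1 the slopes of Pgk1 and Eno1 were -1.13 and -0.63 (edgeR adjusted p = 0.0744 and 0.121), and in data set 1 on its own -0.07 and -0.14.

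The calls were close to the threshold, and on simulated data this test and that of cycling cells made more false calls than the threshold states. Leaving out adult cTEC replicate 1 ended all 3 (edgeR adjusted p = 0.126 for Tpi1 and Pkm and 0.13 for Ldha, with slopes of -0.86, -0.83 and -0.68) and left 21 genes called in all, and leaving out E13.5 TEC, adult cTEC replicate 2 or the E15.5, E17.5 or NB library left 1 member called in each case. Pooling the data sets without a term for them also left none (edgeR adjusted p from 0.0515 to 0.109), and data set 1 on its own left Tpi1 (slope -0.64, edgeR adjusted p = 0.0404). With the clusters of other cell types kept in, all 3 passed (slopes of -0.73, -0.68 and -0.58, edgeR adjusted p from 0.0261 to 0.0302).

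**Figure D2:**
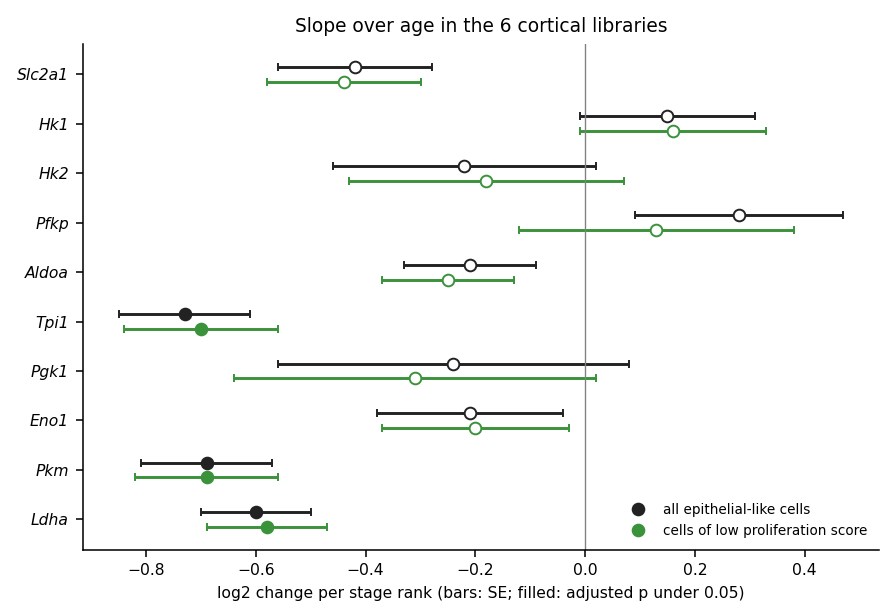
Slope over stage rank (log2 change per stage, with SE) of the 10 genes in the 6 cortical libraries, over all epithelial-like cells and over cells of low proliferation score; filled points passed an adjusted p of 0.05. Tpi1, Pkm and Ldha passed in both, at -0.73 and -0.70, -0.69 and -0.69, and -0.60 and -0.58.

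Cycling cells, those above 0 on a proliferation score from 97 S and G2M phase genes, made up 76.5% of E13.5 TEC, 30.2% of E15.5 cTEC, 15.2% of E17.5 cTEC, 11.6% of NB cTEC and 1.42% and 8.57% of the adult cTEC libraries, so this share dropped with age too. The slopes were therefore fitted again on the cells at or under 0. Tpi1 fell by 0.70 per stage (SE 0.14, edgeR adjusted p = 0.0452), Pkm by 0.69 (SE 0.13, edgeR adjusted p = 0.0415) and Ldha by 0.58 (SE 0.11, edgeR adjusted p = 0.0397), where 4.71% of the 13564 genes tested were called, 1.08% lower and 3.63% higher. The slopes of these 3 genes thus moved by at most 0.03 without the cycling cells. Each call was lost when any 1 of the 6 libraries was left out, and in data set 1 on its own, with slopes of -0.86 to -0.58 for Tpi1, -0.85 to -0.59 for Pkm and -0.66 to -0.48 for Ldha.

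Cycling and other cells were next compared within each library, 2 sums from each of the 8, with the library as a block. Tpi1 was higher in cycling cells in 8 of 8 libraries, with log2 differences (CPM + 10) of 0.10 to 1.22 and an estimate of 0.64 (SE 0.15, edgeR adjusted p = 0.00523). Ldha was likewise higher in 8 of 8 (0.11 to 1.12, estimate 0.46, SE 0.13, edgeR adjusted p = 0.017), and Pkm in 7 of 8 (-0.11 to 1.16, estimate 0.48, SE 0.14, edgeR adjusted p = 0.0159), the exception being E13.5. Aldoa moved the other way and was lower in 8 of 8 libraries (-0.93 to -0.09, estimate -0.49, SE 0.14, edgeR adjusted p = 0.0183). Eno1 was higher in 8 of 8 without passing (estimate 0.29, edgeR adjusted p = 0.121). Pgk1 was higher in 6 of 8 and did not pass either (estimate 0.39, edgeR adjusted p = 0.0843). It passed in 2 of 19 other settings, among them without E13.5 TEC (0.50, edgeR adjusted p = 0.046).

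In all, 3 members were called higher and 1 lower in cycling cells, where 25.8% of the 16890 genes tested were called, 8.53% higher and 17.2% lower, and their median was 0.20 against -0.17 over all genes. Markers of cell types moved too: 5 of 6 cTEC, 7 of 7 mTEC IV tuft and 5 of 5 erythroid markers were called lower and none higher, while 0 of 11 thymocyte markers were called. Of the immediate early and heat shock genes 11 of 22 were called lower and 1 higher. Cycling and other cells thus differed in these markers and stress genes as well, and their part in the estimates was not tested. The cycling sum of adult cTEC replicate 1 rests on 7 cells, and the 4 calls held without that library. Aldoa lost its call without NB cTEC (edgeR adjusted p = 0.0647), and none of the 4 passed at the higher score threshold of Otsu, which left 6 libraries (Tpi1 0.35, Pkm 0.30, Ldha 0.18 and Aldoa -0.72). None passed in data set 2 on its own either, with estimates of 0.69, 0.47, 0.49 and -0.47. In data set 1 on its own Tpi1 and Aldoa passed. A term for a different cycling effect in adult mTEC than in the 6 cortical libraries, added after the data were seen, was called higher for 3 members and lower for none, where 21.0% of the 16890 genes were called, 14% higher and 7% lower. These 3 calls, of Tpi1, Pgk1 and Pkm, were lost under other scalings of the libraries.

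**Figure D3:**
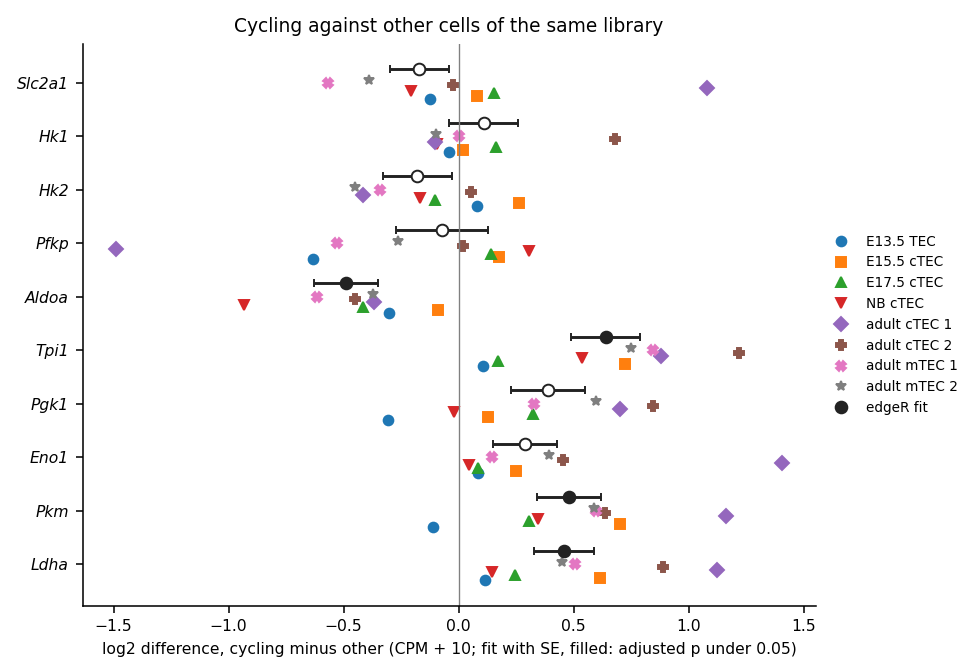
Log2 difference (CPM + 10) between cycling and other cells of the same library for each gene, with the edgeR estimate and its SE above (filled, adjusted p under 0.05). Tpi1 and Ldha lie above 0 and Aldoa below 0 in all 8 libraries.

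In the adult, 3 of 10 members were called between the lineages, a share close to the 30.5% of all genes tested. Hk2 was higher in cTEC, with 49.6 and 25.1 CPM against 5.715 and 21.8 in mTEC, and the log2 estimate was 1.55 (SE 0.54, edgeR adjusted p = 0.0327). The groups did not overlap, but the ratio was 8.67 in data set 1 and 1.15 in data set 2, where the Poisson intervals overlapped. Pfkp was lower in cTEC, with 17.6 and 8.52 CPM against 33.6 and 39.5 (estimate -1.64, SE 0.44, edgeR adjusted p = 0.00636), and so was Tpi1, with 112 and 121 CPM against 228 and 249.5 (estimate -1.11, SE 0.37, edgeR adjusted p = 0.0261). The fold of Tpi1 was alike in the data sets, at 0.491 and 0.484. Cycling cells made up 1.42% and 8.57% of adult cTEC against 11.8% and 15.7% of adult mTEC. In the other cells Tpi1 was at 109.5 and 103.6 CPM in cTEC against 197.6 and 214 in mTEC. The part of cycling in the lineage calls was not tested.

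Among the others, Slc2a1 (estimate -0.69, edgeR adjusted p = 0.208), Pgk1 (-0.72), Eno1 (-0.51), Pkm (-0.75) and Ldha (-0.47) had estimates below 0 without passing, as had Hk1 (-0.13), and Aldoa had 0.22. So 1 of 10 members was called higher and 2 lower in cTEC, where 30.5% of the 15618 genes tested were called, 10.5% higher and 20% lower, with a median of -0.60 against -0.14. In the mTEC libraries myeloid markers summed to 437 and 558 CPM against 247 and 32.6 in cTEC, and erythroid markers to 84.9 and 109 against 1.39 and 2.26. Without cells holding 3 or more haemoglobin UMIs the Hk2 estimate was 1.56 (edgeR adjusted p = 0.0553), while Pfkp and Tpi1 passed (edgeR adjusted p = 0.0101 and 0.031). The stress list summed to 24290 and 14280 CPM in cTEC against 12610 and 7587 in mTEC (9 of 22 genes called higher and 1 lower), and mesenchymal markers to 686 and 442 against 371 and 215. The part of stress and of RNA from other cells was not tested. Hk2 also lost its call under the DESeq2 test (adjusted p = 0.182) and without the data set term (edgeR adjusted p = 0.219).

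Leaving out 1 library leaves no spare degree of freedom beside the data set term, so that term was dropped for these fits, and the lone library of a lineage was assumed to vary like the other pair. Without adult cTEC replicate 2 no member was called (edgeR adjusted p = 0.052 for Tpi1 and 0.0723 for Pfkp). Pfkp passed without adult cTEC replicate 1 and without adult mTEC replicate 1, and Tpi1 in none of these fits. The Hk2 estimate was 2.61 and passed without adult mTEC replicate 2, but was 0.54 without adult mTEC replicate 1, 0.83 without adult cTEC replicate 1 and 1.63 without adult cTEC replicate 2 (edgeR adjusted p = 0.645, 0.525 and 0.246). Pgk1 was called lower without adult mTEC replicate 1 (-2.25, edgeR adjusted p = 0.0137), where the mTEC library that remained was of data set 2, in which Pgk1 was higher.

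**Figure D4:**
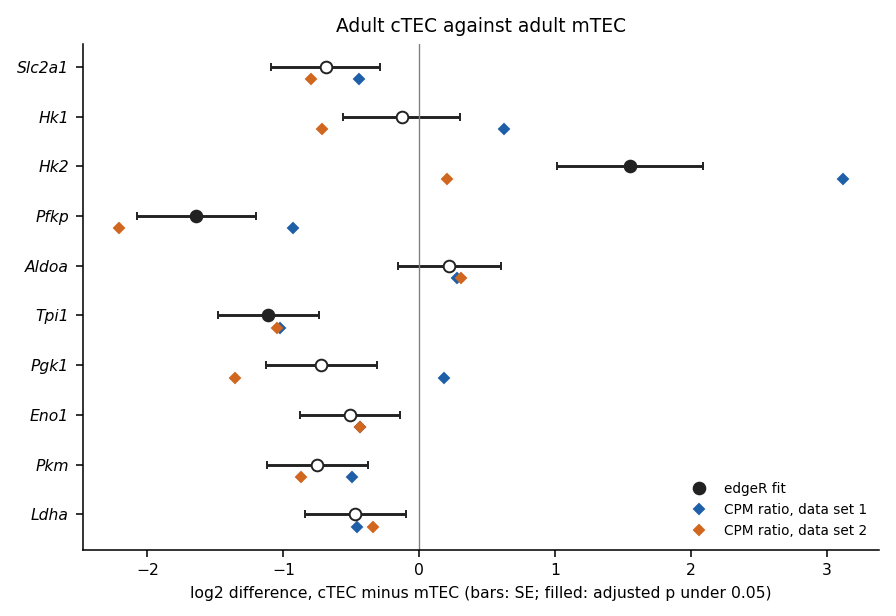
Log2 difference between adult cTEC and adult mTEC for each gene: edgeR estimate with SE (filled, adjusted p under 0.05) and the ratio of CPM within each data set. Hk2, Pfkp and Tpi1 passed; the 2 data sets lie close together for Tpi1 and far apart for Hk2 and Pgk1.

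Within adult mTEC the genes varied between clusters, which are described without a test because the clusters were made from the same cells. mTEC I-like, mTEC III-like and mTEC IV tuft-like clusters were found in both libraries and an mTEC II-like cluster (332 cells) in replicate 1 alone, although mTEC II markers summed to 1082 and 998 CPM over the libraries, so the pools of unnamed clusters may differ in makeup. In the tuft-like clusters, of 13 and 153 cells, Slc2a1 was at 53.1 and 62.7 CPM and Pfkp at 70.8 and 80.1 CPM. Those were the highest values of both genes among the named clusters and the pool of unnamed ones in each library, although the small cluster of replicate 1 had wide intervals (19.5 to 116 CPM for Slc2a1 and 30.6 to 139.5 CPM for Pfkp).

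Against the same named clusters and the pool, Pkm was also highest in the tuft-like clusters (664 and 469 CPM), and Ldha was lowest (265.5 and 266 CPM). Single unnamed clusters were not ranked. In the mTEC III-like clusters Hk2 was at 11.7 and 46.4 CPM, above the mTEC I-like clusters (3.18 and 17.2 CPM). The clusters without a name hold most of the cycling mTEC, with 24.6% and 18.3% of their cells above the score threshold, and had 290 and 264.5 CPM of Tpi1 against 147 and 207 in mTEC I-like cells, of which 2.19% and 14.6% were above the threshold.

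**Figure D5:**
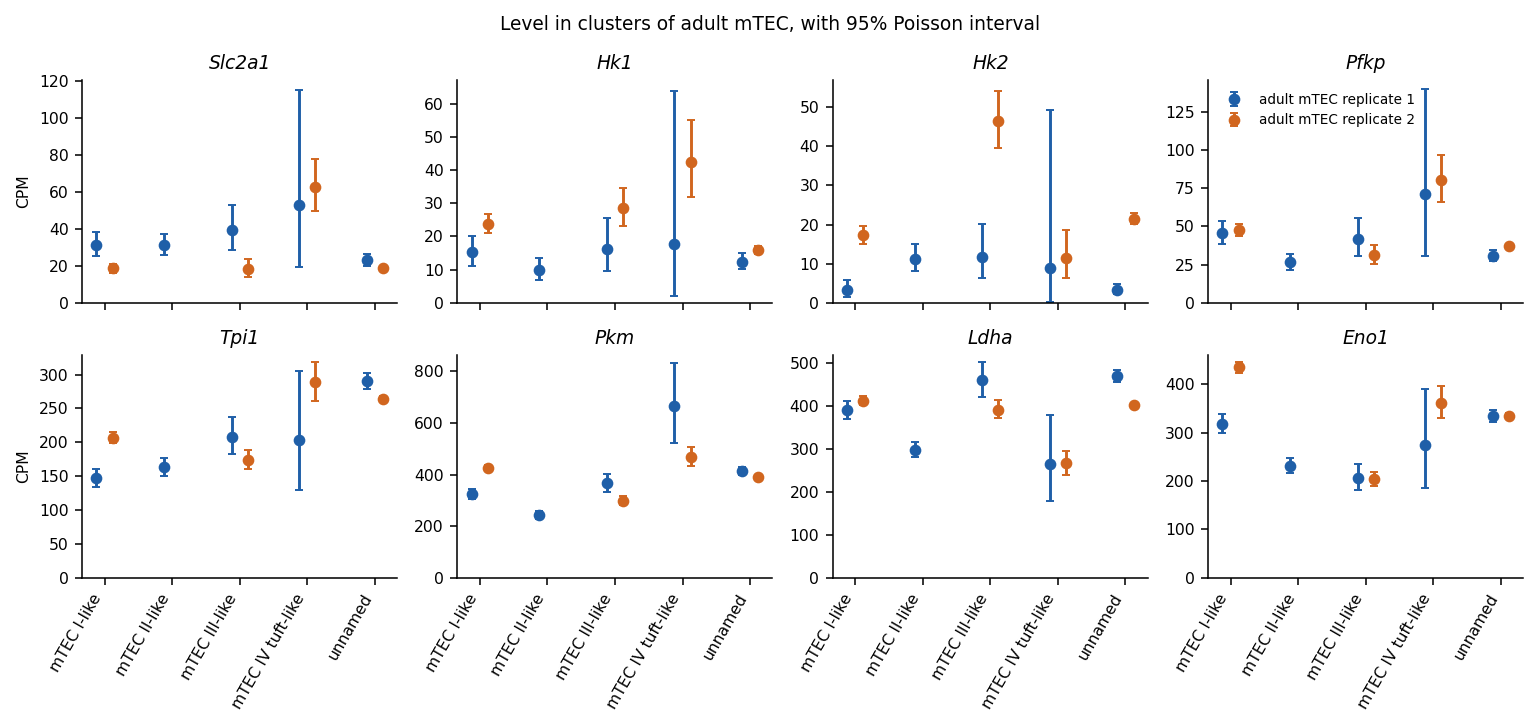
CPM of 8 of the genes in the named clusters of each adult mTEC library and in the pool of unnamed clusters, with exact 95% Poisson intervals. Slc2a1, Pfkp and Pkm are highest and Ldha lowest in the tuft-like clusters among the groups plotted, which hold 13 and 153 cells.

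Of the 17 other enzymes and isoenzymes of the pathway 13 could be tested over age, and 2 were called lower and none higher. Over all genes 2.99% were called lower and 4.99% higher. The 2 enzymes called lower were Pgam1, a mutase of the payoff phase, which fell by 0.63 per stage (SE 0.09, edgeR adjusted p = 0.0164), and Pfkl, the liver-type phosphofructokinase subunit, which fell by 0.54 (SE 0.12, edgeR adjusted p = 0.0477). In cells of low proliferation score Pgam1 passed (-0.58, edgeR adjusted p = 0.027) and Pfkl did not (-0.53, edgeR adjusted p = 0.0786). Pgam1 was at 701, 392, 209 and 122 CPM along data set 1 and at 607 and 196.5 along data set 2. Gapdh (-0.32, edgeR adjusted p = 0.136) and Gpi1 (-0.24, edgeR adjusted p = 0.212) did not pass. Gapdh, like Pgk1, was higher in data set 2 (1026 CPM in adult cTEC and 1493 in adult mTEC) than in data set 1 (509 and 498 CPM). Eno3, a muscle-type enolase, was lower in adult cTEC than in mTEC, at 6.02 and 5.77 CPM against 40.7 and 55.7 (estimate -3.10, SE 0.45, edgeR adjusted p = 1.66e-05). In that comparison 3 of 16 of these enzymes were called lower and 1 higher in cTEC, where 20% and 10.5% of all genes were, so the counts are near those shares. In cycling cells 6 of 16 were called lower, where 17.2% of all genes were, and 1, Pgam1, higher (0.50, SE 0.16, edgeR adjusted p = 0.0327), where 8.53% were.

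Other carriers of glucose showed no called slope (0 of 6 tested, at an adjusted p of 0.05), but 4 of 8 were called higher and 2 lower in adult cTEC than in mTEC, where 10.5% and 20% of all genes were. Slc2a6 was at 0.463 and 0.501 CPM in adult cTEC, 1 UMI and 2 UMIs, and at 39.4 CPM in both mTEC libraries. Slc2a4, the insulin-responsive transporter GLUT4, was at 25.9 and 26.6 CPM in adult cTEC and 12.7 and 6.84 in mTEC (estimate 1.44, SE 0.42, edgeR adjusted p = 0.0124). Downstream of pyruvate, the lactate exporter gene Slc16a3 was at 23.97 CPM at E13.5 and 23.6 at E17.5 but at 2.04 at E15.5 and at most 1.39 in NB and adult cTEC, from 3 to 7 UMIs each (slope -1.76, SE 0.37, edgeR adjusted p = 0.0403, and 0.0766 in cells of low proliferation score). It was at 8.48 and 11.9 CPM in adult mTEC (edgeR adjusted p = 0.000579 for cTEC against mTEC). Of the 17 genes for pyruvate and lactate, 2 were called lower and 1 higher over age, where 2.99% and 4.99% of all genes were, and 0 and 1 of 16 in cells of low proliferation score.

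Of 18 regulators of the pathway tested, 2 were called higher with age and none lower, where 4.99% and 2.99% of all genes were, and 1 was called higher in cells of low proliferation score. Txnip, whose product restrains glucose uptake, rose by 0.87 per stage (SE 0.08, edgeR adjusted p = 0.00504). Txnip was at 15.48, 22.2, 73.4 and 170 CPM along data set 1 and at 26.5 and 98.3 along data set 2. Hif1a had a slope of 0.06 (edgeR adjusted p = 0.673), Myc of 0.36 (edgeR adjusted p = 0.0591) and Mycn of -1.09 (edgeR adjusted p = 0.0578). In adult cTEC against mTEC Hif1a was higher (1.36, SE 0.37, edgeR adjusted p = 0.00706), Txnip was higher (1.77, SE 0.38, edgeR adjusted p = 0.000978), Mycn was lower (0 and 1 UMI in cTEC against 85 and 150 in mTEC, edgeR adjusted p = 0.0117) and Myc was not called (0.08, edgeR adjusted p = 0.914). Of 13 hypoxia-response genes outside the pathway 1 was called, Ankrd37, which fell by 0.89 per stage (SE 0.12, edgeR adjusted p = 0.015), and their median slope was -0.26. In the pentose phosphate branch 1 of 8 genes was called over age, Tkt, which fell by 0.36 (SE 0.08, edgeR adjusted p = 0.0492), and which was not called in cells of low proliferation score. Tkt was also the one called in the adult, at 85.7 and 64.4 CPM in cTEC against 395 and 483 in mTEC. In that comparison 20% of all genes were called lower in cTEC and 10.5% higher.

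The genes whose profile over the 8 libraries was most like the mean of the members, among 4342 genes outside the lists with an average log2 CPM above 5, were Rpl21 (r = 0.78), Mpp6 (0.78), Zfp292 (0.77), Trappc6a (0.76) and Rps7 (0.76). These are descriptions over 8 libraries that share the difference between the data sets. The mean z-score of the members was 1.21 at E17.5 and 0.81 at E13.5, and lowest, at -1.01, in NB cTEC.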

How the data were processed

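Raw UMI counts were deposited by the authors per gene and called cell (10x Chromium v2, Cell Ranger). The submitters' processing notes name bcl2fastq 2.17, STAR 2.5.1b, Cell Ranger 2.0.1 and mm10, and the later release 3.0.1 stands in the headers of the second data set. The 10 members, gene lists and comparisons were chosen with earlier results of these data known.

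Cells over 5% mitochondrial UMIs or 5000 genes were left out, cells were clustered per data set (Leiden, leidenalg 0.10.2), and clusters with at least 3, and over 50%, of the markers of another class (thymocyte, erythroid, myeloid, endothelial, mesenchymal, parathyroid, thyroid) at 4-fold or more were removed. A doublet caller was not run. Counts were summed per library and tested in edgeR 4.0.16 (filterByExpr, TMM, glmQLFit, Benjamini-Hochberg over all genes, threshold 0.05), and the procedure was tested on simulated data, where false calls exceeded the threshold's share for the age trend over all cells and for cycling cells. SE is the estimate divided by the root of F. The members, 12 fixed genes and up to 3 called genes per list with average log2 CPM above 4 could be named, and not all of them are reported here. DESeq2 1.42.0, other scalings, filters and cell selections, and leaving out libraries were alternatives. Promoters came from RefSeq, transcripts from GENCODE vM21 (GRCm38).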

Additional observations from a re-analysis of the deposited data

Results flagged for a closer look

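An interaction term was added after the data were seen and called 21.0% of all genes. For 3 of the 10 genes it called a larger difference between cycling and other cells in adult mTEC than in the 6 cortical libraries. Library by library (CPM + 10), the values of the 2 mTEC libraries lay within the cortical range for each of these genes. They were 0.85 and 0.75 for Tpi1 (cortical 0.10 to 1.22), 0.33 and 0.60 for Pgk1 (-0.31 to 0.85) and 0.60 and 0.59 for Pkm (-0.11 to 1.16). In the same term 10 of 11 thymocyte, 4 of 7 mesenchymal, 3 of 6 myeloid and 2 of 4 parathyroid markers were called lower, and none higher. The part of these cell types was not tested. The extra log2 difference of the fit in mTEC was 0.68 for Tpi1 (SE 0.22, edgeR adjusted p = 0.0313), 0.69 for Pgk1 (SE 0.23, edgeR adjusted p = 0.0384) and 0.58 for Pkm (SE 0.20, edgeR adjusted p = 0.039). All 3 calls were lost with DESeq2 size factors (0.30, 0.27 and 0.20) and with library sizes alone (0.28, 0.26 and 0.17). The scaling moved the median of all genes in this term from 0.13 to -0.28, and the share of calls that were higher in mTEC from 66.6% to 26.1% with DESeq2 size factors and 25.5% with library sizes alone. With library sizes alone the members called, as with DESeq2 size factors, were Slc2a1 (-0.72, edgeR adjusted p = 0.0088) and Hk2 (-0.78, edgeR adjusted p = 0.0115). With TMM, all 3 calls were lost without E17.5 cTEC, NB cTEC, adult cTEC replicate 2 or either adult mTEC library, that of Pgk1 also without E15.5 cTEC (edgeR adjusted p = 0.0813). The values of Tpi1, Pgk1 and Pkm were 0.66, 0.67 and 0.55 without NB cTEC but 0.24, 0.33 and 0.21 without E17.5 cTEC. Without adult cTEC replicate 2 the values were 0.47, 0.50 and 0.29 (edgeR adjusted p = 0.0738, 0.103 and 0.315), while Slc2a1 (-0.67, edgeR adjusted p = 0.0163) and Hk2 (-0.72, edgeR adjusted p = 0.0353) were called lower. Without adult mTEC replicate 1 Hk2 alone of these 5 genes was called (-0.66, edgeR adjusted p = 0.0492).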

How the results depend on the processing

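Under the 17 other settings run for the slope over age and the 12 run in cells of low proliferation score, among them library sizes alone, added after the data were seen, the estimates of Tpi1, Pkm and Ldha kept their sign. Genes called over age numbered 2910 with the DESeq2 test, 456 in data set 1 only and 21 to 1234 with a library left out. Members called were 3, but 0 without the data set term, 1 in data set 1 only and 0 to 1 with a library left out. In cells of low proliferation score these were 1972, 191 and 21 to 1007 genes, and 0 members without the data set term, in data set 1 only and with any library left out. For adult cTEC against mTEC, 2568 genes were called by DESeq2, and 1690 to 2934 genes and 0 to 2 members with a library left out. For cycling cells, 2064 genes and 0 members were called at the threshold of Otsu, 1978 and 2 in data set 1 only and 1754 and 0 in data set 2 only. The causes were not tested, except that fewer libraries entered the fits that left some out.

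Signs turned only for members that did not pass. With 1 library left out, slopes ranged from -0.87 to 0.01 for Hk2 (-0.82 to 0.06 in cells of low score), -0.18 to 0.37 for Hk1 (-0.18 to 0.36) and -0.02 to 0.66 for Pfkp (-0.24 to 0.76). In cTEC against mTEC, Hk1 ranged from -0.50 to 0.19, with 0.12 without adult cTEC replicate 2, and Pgk1 from -3.28 to 2.04, where the libraries that remained came unequally from the data sets. In cycling cells, Hk1 was at -0.08 at the threshold of Otsu and in data set 1 only and at -0.02 to 0.18 with a library left out, and Pfkp at 0.09 without E13.5 TEC and 0.03 in data set 2 only. Replicate numbers follow the data sets, so the data set term is the replicate block of the adult libraries: without it Hk2 was at 1.30 (edgeR adjusted p = 0.219) and 2 members were called. Low counts limit several values, with 34 to 45 UMIs for Pfkp, Slc2a1 and Hk1 in the adult cTEC libraries. Pgk1 rests on 39 UMIs in adult cTEC replicate 1 and on 40 in NB cTEC.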
